A study of Mus musculus with 9 samples.

Results

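The genes described here are those of the mouse major histocompatibility complex (MHC) that present peptides to T cells, together with the genes that load and switch them on. They were taken by name: every gene whose symbol begins with H2-, plus B2m, Cd74, Ciita, Nlrc5, Tap2 and Tapbp, which gave 40 genes of the 31053 in the feature tables of day 4. By their known roles, 28 belong to class I, 11 to class II and 1 (H2-Ke6, a hydroxysteroid dehydrogenase encoded between them) to neither. The 28 class I genes are the light chain B2m, the classical heavy chains H2-K1 and H2-D1, 22 non-classical heavy chains of the Q, T and M groups, the transporter subunit Tap2, the loading factor Tapbp and the transactivator Nlrc5. The 11 class II genes are the alpha chain H2-Aa, the beta chains H2-Ab1, H2-Eb1 and H2-Eb2, the invariant chain Cd74, the editors H2-DMa, H2-DMb1, H2-DMb2, H2-Oa and H2-Ob, and the transactivator Ciita. In the mm10 build, 36 of the 40 lie on chromosome 17, from Tapbp (start 33915899) to H2-M2 (end 37483552).

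Class I molecules sit on nearly all nucleated cells and carry peptides that the proteasome cut in the cytosol, that TAP pumped into the endoplasmic reticulum and that tapasin (Tapbp) helped to load. Class II molecules are made mainly by professional antigen-presenting cells such as dendritic cells, B cells and activated macrophages. Their alpha and beta chains are held by the invariant chain Cd74 until H2-DM exchanges its remnant for a peptide in the endosome. NLRC5 is the main transactivator of class I genes and CIITA the master switch of class II genes, and interferon gamma raises both. Resting tissue macrophages of the embryo are known to hold little class II, and neurons little class I.

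The samples were cultures of mouse embryonic fibroblasts (MEFs) of 3 genotypes, WT, Per1-/- and Per2-/-, the mutants carrying the alleles Per1tm1Drw and Per2tm1Drw on a B6.129 background. MEFs came from mid-gestation embryos without head and heart, several of them pooled in a dish, and the sex of the embryos was not given. Every culture, WT included, was transduced with lentivirus carrying doxycycline-inducible neuronal transcription factors to make induced neurons (iNs), and cells were taken on days 4, 7 and 10 after the change to neuronal medium with doxycycline. There was 1 library per genotype and day, 9 in all, so days served as the repeats of a genotype and genotypes as the repeats of a day. The p-values below therefore measure the spread between these libraries, not between separate cultures of one kind.

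Of 95603 cell barcodes, 73557 were kept, 5625 to 10517 per library, with a median of 14150 to 27266 UMI (unique molecular identifiers, each counting 1 captured transcript) per cell. The WT day 10 library stood apart, since 55.4% of its barcodes passed the filters against 86.1% to 94.5% in the others. Clusters were named from marker lists, with the MHC genes left out of the clustering. The named classes held 6536 macrophage-like, 44204 fibroblast-like, 8975 neuron-like, 2586 Schwann-like, 2481 skeletal muscle-like, 1012 astrocyte-like and 594 mesothelial-like cells, and 7169 cells stayed unnamed. All 18 macrophage markers were raised in each of the 3 macrophage-like clusters. Between 10 and 29 kept barcodes were shared by any pair of libraries, 666 of 72889 in all. The summed level of Y-linked genes was 189 and 203 CPM in macrophage-like cells of Per1-/- days 7 and 10 and 33.8 to 81.1 CPM in the other 7 libraries, so Y-linked RNA moved with the Per1-/- genotype on those days. CPM here means the UMI of a gene divided by all UMI of the summed cells of a class in a library, times 1000000. The assay counts 3′ ends, so a level does not scale with gene length.

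Promoter sequences are shown here because an element found in genes of both classes stood mostly in opposite orientation in them. RefSeq (build GRCm38.p6) gave the 250 bases before the start of 33 of the 40 genes, 24 of class I and 8 of class II, plus H2-Ke6. The windows of Ciita, Nlrc5, Tap2, H2-Ab1, H2-Q1, H2-T24 and Cd74 were not analysed here. The Y box, the binding site of the factor NF-Y, was searched as TGATTGG and, on the other strand, as CCAATCA. Read in the direction of the gene, TGATTGG was in 7 of the 8 class II promoters (H2-Aa, H2-Eb1, H2-Eb2, H2-DMb1, H2-DMb2, H2-Oa and H2-Ob) and in 1 of the 24 of class I (H2-T22), against 3.64% of all 32851 promoter windows. The reverse form CCAATCA was in 13 of the 24 class I promoters, H2-D1, H2-Q4, H2-Q7 and H2-T23 among them, and in 0 of the 8 of class II, against 3.83% of all windows. The others were H2-Q6 and, in the M group, H2-M1, H2-M9, H2-M10.1, H2-M10.3, H2-M10.4, H2-M10.5, H2-M10.6 and H2-M11. Genes of a group are related, so these matches are not independent of each other. B2m and H2-K1 had neither form. A fragment of the class I NF-kB site, GATTCCCC, was in H2-K1, H2-D1, H2-Q6 and H2-M3 (0.399% of all windows), and its reverse GGGGAATC was in 0 of the members (0.353%). The interferon-stimulated response element was searched as a pair of TTTC with 2 bases of any kind between them, found in H2-T23 and H2-T22 (1.46%), and in the reverse orientation as a pair of GAAA, found in B2m (1.53%). Only this pattern was searched, so a gene without a match, H2-K1 and H2-D1 among them, can still hold another form of the element. No motif searched overlaps another in the promoters shown. The promoters of 5 genes follow, 5′ to 3′ on the strand of the gene, with these motifs in capitals. H2-Aa (chr17:34287824-34288073, minus strand) and H2-Eb1 (chr17:34305617-34305866, plus strand) are the class II chains, with TGATTGG at bases 50 to 44 and 61 to 55 before the start.
H2-Aa: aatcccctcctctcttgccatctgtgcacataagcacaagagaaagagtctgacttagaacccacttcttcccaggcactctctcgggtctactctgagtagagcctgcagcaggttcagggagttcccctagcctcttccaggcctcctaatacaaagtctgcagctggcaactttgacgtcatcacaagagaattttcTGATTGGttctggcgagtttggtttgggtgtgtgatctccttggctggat
H2-Eb1: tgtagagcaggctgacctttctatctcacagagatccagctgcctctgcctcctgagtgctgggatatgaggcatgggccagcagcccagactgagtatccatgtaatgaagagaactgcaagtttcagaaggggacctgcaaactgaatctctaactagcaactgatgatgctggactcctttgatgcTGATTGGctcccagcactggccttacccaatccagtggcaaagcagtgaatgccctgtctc

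H2-K1 (chr17:34000348-34000597, minus strand) and H2-D1 (chr17:35262844-35263093, plus strand) are the classical class I heavy chains. GATTCCCC stood at bases 108 to 101 and 168 to 161 before their starts, and H2-D1 had CCAATCA at bases 53 to 47. H2-T23 (chr17:36032702-36032951, minus strand), the non-classical chain Qa-1 that NK and CD8 T cells recognise, had TTTCTCTTTC at bases 124 to 115 and CCAATCA at bases 52 to 46.
H2-K1: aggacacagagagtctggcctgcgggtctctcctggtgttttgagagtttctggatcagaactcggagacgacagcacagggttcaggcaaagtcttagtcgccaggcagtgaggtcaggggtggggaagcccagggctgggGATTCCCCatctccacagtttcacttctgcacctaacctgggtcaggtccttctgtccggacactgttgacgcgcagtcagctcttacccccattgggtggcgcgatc
H2-D1: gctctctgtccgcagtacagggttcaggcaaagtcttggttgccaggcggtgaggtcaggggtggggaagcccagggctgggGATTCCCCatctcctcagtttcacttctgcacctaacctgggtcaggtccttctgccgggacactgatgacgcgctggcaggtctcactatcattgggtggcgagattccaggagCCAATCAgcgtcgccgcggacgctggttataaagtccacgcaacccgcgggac
H2-T23: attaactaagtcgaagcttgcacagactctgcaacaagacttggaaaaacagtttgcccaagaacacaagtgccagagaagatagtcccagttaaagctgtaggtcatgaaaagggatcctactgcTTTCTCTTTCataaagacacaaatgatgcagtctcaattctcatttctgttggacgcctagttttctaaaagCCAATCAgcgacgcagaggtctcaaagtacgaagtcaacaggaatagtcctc

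A match of letters is a description of the sequence and not a site of binding, and nothing was measured at these promoters. The feature tables were built on another gene annotation, whose ends for H2-D1 (35262730 to 35267499 on chromosome 17) and H2-T23 (36029773 to 36032855) reach past the RefSeq starts used here.

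Class I RNA was higher in macrophage-like cells than in fibroblast-like cells, and higher in fibroblast-like than in neuron-like cells, in all 9 libraries. Summed over the 28 class I genes, macrophage-like cells held 3404, 3403 and 4512 CPM in WT on days 4, 7 and 10, 3663, 4005 and 4451 CPM in Per1-/- and 3052, 5401 and 6180 CPM in Per2-/-. Fibroblast-like cells held 535 to 880 CPM (median 767) and neuron-like cells 158 to 236 CPM (median 205). These 3 ranges do not overlap, and within a library the macrophage-like sum was 4.58 to 7.25 times (median 5.38) that of fibroblast-like cells. Schwann-like cells, named for the glia of peripheral nerves, were next to macrophages with a median of 1473 CPM (1156 to 2048), while mesothelial-like (median 797), astrocyte-like (597) and skeletal muscle-like cells (538) overlapped the fibroblast range. Because classes were cut from the same cells, differences between classes are given as descriptions with no test.

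**Figure D1:**
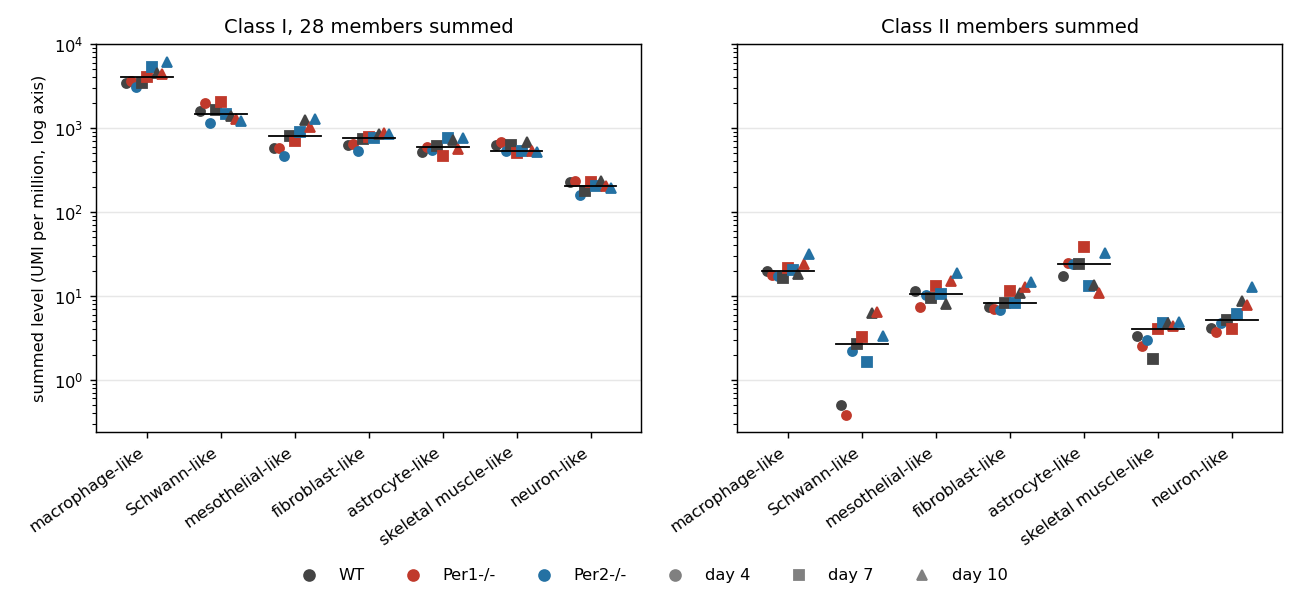
Summed level of the 28 class I and 11 class II genes in 7 cell classes, in CPM on a log axis, with 1 point per library and a black line at the median of the 9. Class I points run from 158 CPM in neuron-like cells to 6180 CPM in macrophage-like cells, and class II points stay under 40 CPM in every class.

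B2m, the light chain shared by all class I molecules, was the most abundant gene of the 40 in macrophage-like cells, with 1715, 1800 and 2507 CPM in WT, 1830, 1912 and 2067 CPM in Per1-/- and 1554, 2748 and 3311 CPM in Per2-/- on days 4, 7 and 10. Fibroblast-like cells had 359 to 572 CPM of it and neuron-like cells 66.9 to 114 CPM. Between macrophages and fibroblasts the heavy chains differed more than the light chain did. H2-D1 ran from 875 to 1543 CPM in macrophage-like cells, from 42.4 to 93.3 CPM in fibroblast-like cells and from 35.9 to 71.5 CPM in neuron-like cells. H2-K1 ran from 417 to 872, from 26.5 to 69.3 and from 7.79 to 19.9 CPM. The macrophage-like level was thus a median of 16.1 times the fibroblast-like level for H2-D1 (13.4 to 22.5) and 13.4 times for H2-K1 (9.86 to 19.7), against 4.27 times for B2m (3.72 to 5.80). Neurons and fibroblasts differed least in H2-D1, at a median ratio of 0.867, and more in H2-K1 (0.295) and B2m (0.193). Against neurons, the macrophage-like level was a median of 22.5 times for B2m, 18.8 times for H2-D1 and 43.6 times for H2-K1. Near-identical class I genes (H2-K1, H2-D1 and the Q group) share stretches of sequence, and reads that map to more than 1 gene are not counted by Cell Ranger, so the split between them is uncertain.

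Of the genes that serve the class I molecule, Tapbp and Tap2 differed less than the heavy chains between macrophages and both fibroblasts and neurons. Tapbp, tapasin, held 100 to 182 CPM in macrophage-like cells, 60.3 to 101 CPM in fibroblast-like cells and 16.0 to 19.3 CPM in neuron-like cells. Tap2, a subunit of the peptide transporter, was nearly level between macrophages (11.7 to 19.0 CPM) and fibroblasts (7.55 to 26.2 CPM), with a median ratio of 1.04 and macrophages higher in 6 of 9 libraries. Nlrc5 followed the heavy chains, with 3.37 to 10.5 CPM in macrophage-like cells against 0.313 to 0.687 CPM in fibroblast-like cells, a median of 13.6 times. In neuron-like cells Nlrc5 had 16 UMI over all 9 libraries.

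**Figure D2:**
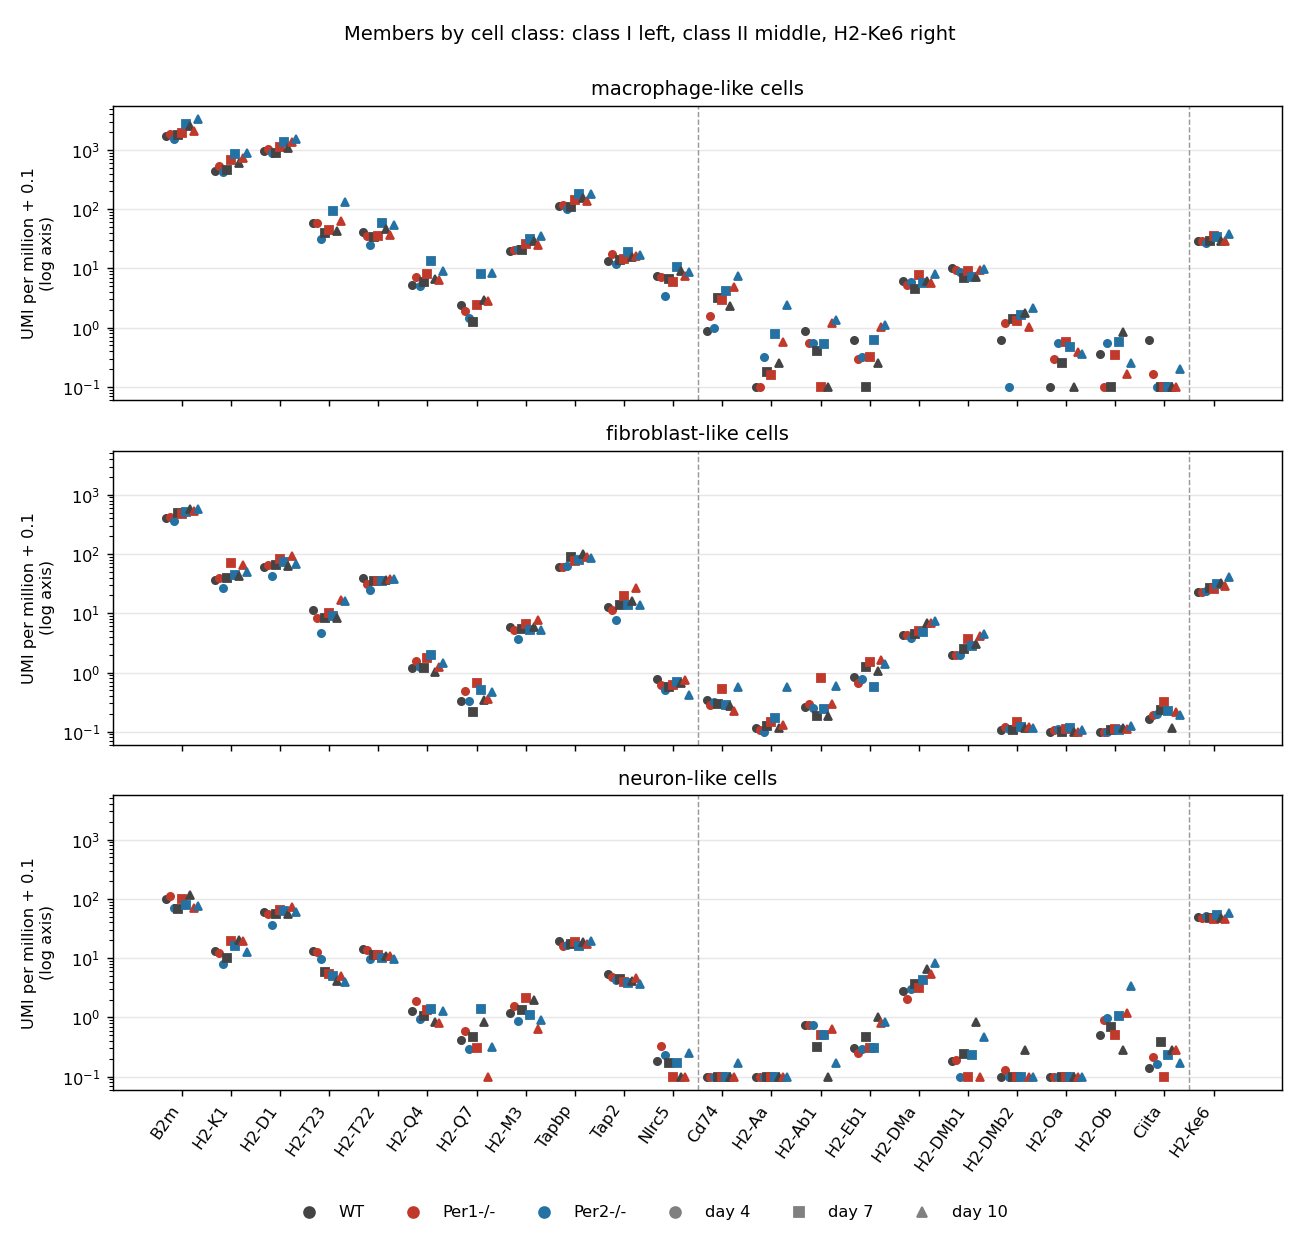
Level of 22 members in macrophage-, fibroblast- and neuron-like cells, in CPM plus 0.1 on a log axis, with 1 point per library, colour for genotype and shape for day. Macrophage-like points lie above the others for B2m, H2-K1, H2-D1 and Nlrc5, while points of H2-DMa, Tap2 and H2-Ke6 overlap between macrophages and fibroblasts.

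Of the 22 non-classical heavy chains, H2-T23, H2-T22 and H2-M3 led in macrophage-like cells. H2-T23 held 31.7 to 130 CPM there, with the highest values in Per2-/- on days 7 (92.5 CPM) and 10 (130 CPM), and 4.50 to 16.8 CPM in fibroblast-like cells. H2-T22, a ligand of gamma delta T cells, held 24.6 to 39.2 CPM in fibroblasts and 24.7 to 57.6 CPM in macrophages, which were higher in 7 of 9 libraries at a median ratio of 1.06. H2-M3, which presents N-formylated peptides, held 19.9 to 35.1 CPM in macrophages and 3.56 to 7.72 CPM in fibroblasts. H2-Q4 stood out in Schwann-like cells, with 15.5 to 41.6 CPM against 4.94 to 13.5 CPM in macrophage-like cells, and Schwann-like cells also held 262 to 551 CPM of H2-D1 and 659 to 1094 CPM of B2m. H2-M5 was the reverse of the general order, with 1.80 to 3.42 CPM in neuron-like cells, 0.814 to 1.11 CPM in fibroblast-like cells and at most 0.150 CPM in macrophage-like cells. In macrophage-like cells 10 class I genes were at 0, all of the M group but for H2-T3, and over all kept cells 5 were (H2-M1, H2-M10.1, H2-M10.3, H2-M10.4 and H2-M11).

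Class II RNA was scarce everywhere. Summed over 11 genes, it came to 19.7, 16.2 and 18.2 CPM in WT macrophage-like cells on days 4, 7 and 10, to 17.9, 21.6 and 23.7 CPM in Per1-/- and to 17.1, 20.6 and 31.9 CPM in Per2-/-. Fibroblast-like cells held 6.71 to 14.7 CPM and neuron-like cells 3.75 to 12.9 CPM, so the macrophage-like sum was a median of 2.17 times the fibroblast-like one (1.66 to 2.66). Most of that sum was H2-DM and not the alpha and beta chains. In macrophage-like cells H2-DMb1 held 6.81 to 10.2 CPM and H2-DMa 4.46 to 7.89 CPM, and 0 of the 11 genes reached 10 CPM in the median library. With all libraries pooled, 1 of the 11 reached 10 CPM in astrocyte-like cells and 0 did in macrophage-like cells.

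The alpha and beta chain genes of class II were close to the limit of the counts. H2-Aa, H2-Ab1 and H2-Eb1 together held 1.31, 0.378 and 0.300 CPM in WT macrophage-like cells on days 4, 7 and 10, 0.646, 0.278 and 2.51 CPM in Per1-/- and 0.899, 1.65 and 4.53 CPM in Per2-/-. Fibroblast-like cells had 0.676 to 2.24 CPM of the same chains, and macrophages exceeded them in 5 of 9 libraries. H2-Eb1 alone was higher in fibroblasts than in macrophages in 8 of 9 libraries, and it was 0.464 to 1.55 CPM there. Most of the fibroblast-like chain counts were H2-Eb1, with 1000 UMI over all libraries against 258 of H2-Ab1 and 86 of H2-Aa. H2-Aa had 0 UMI in all 9 neuron-like sums. Astrocyte-like cells held the most, with a median of 5.44 CPM (1.53 to 13.8), of which H2-Ab1 made 3.35 CPM and H2-Eb1 1.88 CPM in the median library, although they numbered 19 to 223 cells per library. Counting Cd74 as well, 1 astrocyte-like cell held 47.1% of these UMI in Per1-/- day 4, 1 held 43.8% in WT day 7 and 1 held 63.3% in Per1-/- day 7.

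Cd74, the invariant chain, was 0.786, 3.1 and 2.25 CPM in WT macrophage-like cells, 1.49, 2.81 and 4.80 CPM in Per1-/- and 0.899, 4.03 and 7.33 CPM in Per2-/-, resting on 3 UMI in the WT day 4 sum and 151 UMI in the Per1-/- day 10 sum. Fibroblast-like cells had 0.127 to 0.478 CPM of Cd74, and neuron-like cells had 1 UMI in all, in Per2-/- on day 10. Ciita, the class II switch, gave 5 UMI in the macrophage-like sums of all libraries, 2 in WT day 4, 1 in Per1-/- day 4 and 2 in Per2-/- day 10. The 0 in Per1-/- day 7 allows up to 0.114 CPM (exact Poisson limit at 95%, for counting error only, as for all intervals here). H2-Oa and H2-Ob, which hold back H2-DM, stayed at or under 0.463 and 0.750 CPM in macrophages. H2-Ob was higher in neuron-like cells, 0.186 to 3.35 CPM, than in fibroblast-like cells in 9 of 9 libraries. H2-DMa was spread over cell classes, since fibroblasts held 3.72 to 7.42 CPM and neurons 1.94 to 8.16 CPM. Astrocyte-like cells had 242 UMI of H2-DMa in 1012 cells, against 975 UMI in 6536 macrophage-like cells. H2-Ke6, the member of neither class, was 26.7 to 37.4 CPM in macrophages, 22.5 to 41.2 CPM in fibroblasts and 45.4 to 58.6 CPM in neurons.

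Counted by cell, class I was in nearly every macrophage-like cell and class II chains in few cells of any class. Each cell was thinned to 3000 UMI so that depth was equal. At that depth 6464 of 6535 macrophage-like cells (98.9%, exact 95% interval 98.6 to 99.1) had at least 1 UMI of any class I heavy chain, against 35.4% of fibroblast-like, 23.3% of neuron-like and 71.5% of Schwann-like cells. B2m was seen in 99.2%, 71.8% and 18.1% of macrophage-, fibroblast- and neuron-like cells. A class II alpha or beta chain was seen in 14 of 6535 macrophage-like cells, 0.214% (0.117 to 0.359), in 145 of 44202 fibroblast-like cells, 0.328% (0.277 to 0.386), and in 20 of 8969 neuron-like cells, 0.223% (0.136 to 0.344). The pooled macrophage share was thus no higher than that of fibroblast- or neuron-like cells, and the 3 intervals overlap. The intervals in this paragraph pool the cells of all libraries and do not measure the spread between libraries. Without thinning the shares were 1.02%, 2.04% and 1.03%, at median depths of 22060, 22100 and 12010 UMI. Astrocyte-like cells had 10 of 1008, 0.992% (0.477 to 1.82). For Cd74 the intervals did not overlap, at 0.734% of macrophage-like cells (0.542 to 0.973) against 0.0656% of fibroblast-like cells (0.0439 to 0.0942) and 0 of 8969 neuron-like cells (upper limit 0.0411%).

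**Figure D3:**
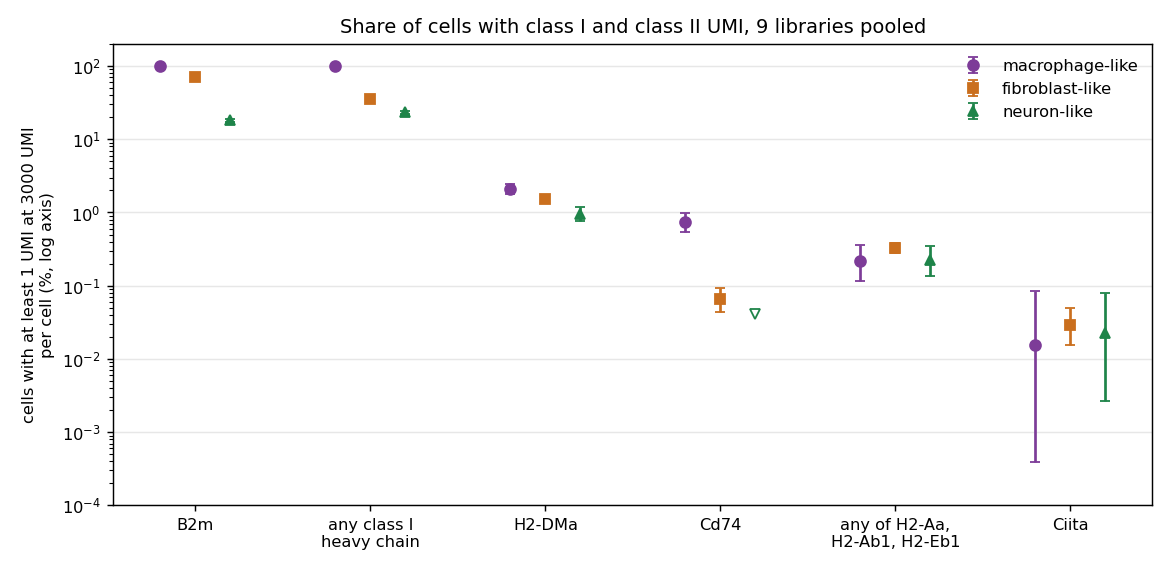
Share of cells, in percent on a log axis, with at least 1 UMI of B2m, any class I heavy chain, H2-DMa, Cd74, any of H2-Aa, H2-Ab1 and H2-Eb1, and Ciita, at 3000 UMI per cell, with exact 95% intervals. An open triangle marks the limit that a count of 0 allows. Class I shares separate the cell classes (98.9%, 35.4% and 23.3% for heavy chains in macrophages, fibroblasts and neurons), while shares of the class II chains lie at 0.214%, 0.328% and 0.223%.

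UMI of macrophage marker genes were also seen in the other classes, and the class II counts were set against them. Per 100 UMI of macrophage marker genes, macrophage-like cells held 0.00242 UMI of H2-Eb1 and 0.0182 UMI of Cd74, while fibroblast-like cells held 1.84 and 0.490 UMI. For H2-DMa the values were 0.0299 in macrophages, 10.2 in fibroblasts and 6.42 in neurons. These ratios were higher in fibroblasts than in macrophages, and the part of RNA from lysed cells in the counts was not tested.

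Few macrophage-like cells had UMI of the class II chains, and in 3 libraries a handful of cells held 30.8% to 70.4% of the UMI of Cd74 and the chains. In the 14 macrophage-like cells with a chain UMI at 3000 UMI, the summed Cd74 level was 541 CPM, against 2.61 CPM in the other 6521. These 14 were chosen by the chains, which are known to be switched on together with Cd74. Their B2m (1902 against 2272 CPM), H2-K1 (588 against 702 CPM), H2-D1 (908 against 1229 CPM) and the macrophage receptor Csf1r (547 against 677 CPM) lay below those of the rest in the pooled cells. That order was not the same in each library, since in the 5 such cells of Per2-/- day 10 B2m was 3320 CPM against 3311, H2-K1 911 against 872, H2-D1 1704 against 1543 and Csf1r 955 against 826. Counted over all UMI, 8 macrophage-like cells held 10 or more UMI of Cd74, H2-Aa, H2-Ab1 and H2-Eb1 together, and these 8 held 362 of the 847 such UMI of the class, 42.7%. They lay in Per2-/- day 7 (3 cells, 30.8% of the UMI of that library), Per1-/- day 10 (2 cells, 63.0%) and Per2-/- day 10 (3 cells, 70.4%), and the other 6 libraries had 0. All 8 had UMI of Csf1r and Adgre1, and 7 had UMI of C1qa. Of 8 dendritic cell markers, all were at 0 in 7 of the 8 cells, and 1 cell of Per2-/- day 10 had 3 UMI of Flt3, 5 of Cd209a and 6 of Siglech. That cell had 0 UMI of C1qa, 2 of Csf1r and 1 of Adgre1.

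When left out, a choice made after the data were seen, the 8 cells lowered the class II level of the libraries they came from. They were chosen by these same UMI, so a lower level without them follows from the choice. The chains then came to 0.695 CPM in Per2-/- day 7, 0.223 CPM in Per1-/- day 10 and 0.562 CPM in Per2-/- day 10, within the 0.278 to 1.31 CPM of the other 6 libraries but for Per1-/- day 10, which lay under it. Cd74 came to 3.24, 2.48 and 2.96 CPM, and the class II sum to 18.8, 18.9 and 23.1 CPM. Among fibroblast-like cells 7 held 10 or more such UMI, 5 of them in Per2-/- day 10, and among neuron-like cells 0 did. Within the macrophage-like class, the 3 clusters differed in class I and in class II. The largest (4091 cells) held 2352 CPM of B2m and 4.06 CPM of Cd74, the next (1541 cells, with C5ar1 and Ccl9 among its top genes) 1625 and 4.15 CPM, and the smallest (904 cells, with Ighm, Siglech and Cx3cr1 among its top genes) 3431 and 1.63 CPM. H2-DMa was 7.39, 4.84 and 4.05 CPM in them. The libraries held the clusters in unequal shares. The largest made 19.6% of the class in WT day 4 and 76.2% in Per1-/- day 10, the next 60.3% in Per1-/- day 4 and 4.99% in Per2-/- day 10, and the smallest 28.1% in WT day 4 and 8.14% in Per1-/- day 10.

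In the culture as a whole, macrophages supplied a large part of the class I RNA relative to their number. They were 1.92%, 6.73% and 4.85% of kept cells in WT on days 4, 7 and 10 and carried 11.3%, 28.4% and 27.5% of class I UMI. In Per1-/- they were 4.43%, 23.3% and 16.2% of cells and carried 25.9%, 59.4% and 54.6%, and in Per2-/- 2.66%, 12.0% and 9.54% of cells and 16.5%, 48.6% and 46.5% of class I UMI. The class I sum over all cells of a library was highest in Per1-/- days 7 and 10 (1485 and 1535 CPM) and lowest in Per2-/- day 4 (565 CPM), and in such whole-culture sums more cells and more RNA per cell cannot be told apart. Their part of the class II sum was smaller, at 5.28% to 35.2%. An unnamed cluster with macrophage markers and low UMI is not in these shares, and it made 26.8% of the kept cells of WT day 10 (1505 cells) and 0.0416% to 0.814% in the other 8 libraries, so the WT day 10 share rests on where that cluster is counted.

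Genotypes were compared within each cell class by edgeR's quasi-likelihood test on summed counts, with day and genotype as factors and Benjamini-Hochberg adjustment over all genes tested. A gene was called at an adjusted p under 0.05. In macrophage-like cells 19 members were abundant enough to be tested among 12579 genes, 13 of class I, 5 of class II and H2-Ke6. The WT day 10 sum used in the comparisons with WT held 273 cells. It left out the 1505 cells of that library in the unnamed cluster with macrophage markers and low UMI, and their part in the differences was not tested. For Per2-/- against WT, 0 of the 19 were called, and 0.0% of all genes were. At an unadjusted p under 0.05 there were 7 members, all higher in Per2-/-, against 7.17% of all genes in that direction, and DESeq2 called 0, against 2.47% of all genes. The fitted difference was positive for 19 of 19 members with a median log2 fold change of 0.39, against 49.5% of all genes positive and a median of -0.00335. Class I genes had 13 of 13 positive (median 0.41) and class II genes 5 of 5 (median 0.34). The 7 were H2-Q7 (log2 fold change 1.73, SE 0.51, adjusted p 0.208), Cd74 (0.94, SE 0.37, adjusted p 0.274), H2-Q4 (0.78, SE 0.25, adjusted p 0.22), H2-K1 (0.52, SE 0.17, adjusted p 0.22), H2-M3 (0.46, SE 0.13, adjusted p 0.194), H2-D1 (0.41, SE 0.15, adjusted p 0.251) and Tapbp (0.36, SE 0.15, adjusted p 0.302). The value of Cd74 moved with single cells: without the 8 macrophage-like cells of 10 or more UMI, 6 of them in Per2-/-, it was 0.29 (SE 0.32, adjusted p 0.693), an alternative added after the data were seen. Those cells were chosen by their UMI of Cd74 and the chains, so a lower Cd74 value without them follows from the choice.

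The Per2-/- libraries did not stand on one side of WT on all days. On day 4, 11 of the 13 class I and 4 of the 5 class II genes tested were lower in Per2-/- than in WT, while on day 7 all 18 were higher, and on day 10 all but 1 class I gene. The class II directions of day 4 rest in part on few UMI. H2-Ab1 had 3 UMI in WT and 2 in Per2-/- on that day, and Cd74 had 3 and 4. H2-K1 was 417 CPM in Per2-/- and 446 CPM in WT on day 4, 853 and 467 CPM on day 7, and 872 and 613 CPM on day 10. H2-Q7 was 1.35 and 2.36 CPM on day 4, 7.92 and 1.13 CPM on day 7, and 8.25 and 2.85 CPM on day 10. The Per2-/- day 4 sum (205 cells) was thus lower than WT, and on days 7 and 10 Per2-/- was the highest of the 3 genotypes for both genes. H2-T23 had the same order, with 31.7 and 58.2 CPM in Per2-/- and WT on day 4, 92.5 and 39.7 CPM on day 7, and 130 and 42.0 CPM on day 10. H2-M3 was higher in Per2-/- on 3 of 3 days. Without the Per2-/- day 4 library, 11 of 22 tested members were called higher, against 2.73% of all genes called higher: B2m (log2 fold change 0.62, adjusted p 0.0281), H2-K1 (0.75), H2-D1 (0.61), H2-Q4 (1.0), H2-Q7 (2.10), H2-M3, H2-T22, H2-T23 (1.43), H2-T24, Tapbp and H2-Aa. The library left out was the one in which most members lay lower than in WT, so leaving it out raises most of the fitted differences. The fit then rested on 2 days for Per2-/-. H2-Aa rested on single cells in it, since 1 cell held 43 of the 45 H2-Aa UMI of Per2-/- day 10 and 3 cells held 15 of the 21 of Per2-/- day 7. Without the 8 cells of 10 or more UMI and the Per2-/- day 4 library, the other 10 were called higher, against 2.78% of all genes, and H2-Aa was too low to be tested. The clusters of the macrophage-like class showed the order of Per2-/- and WT one by one. In the largest cluster B2m was 1481 CPM in Per2-/- and 1687 CPM in WT on day 4, 2689 and 1787 CPM on day 7, and 3105 and 2540 CPM on day 10, and in the smallest it was 2469 and 2616, 4101 and 2898, and 4245 and 3319 CPM. Leaving out any other single library gave 0 called in this comparison.

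**Figure D4:**
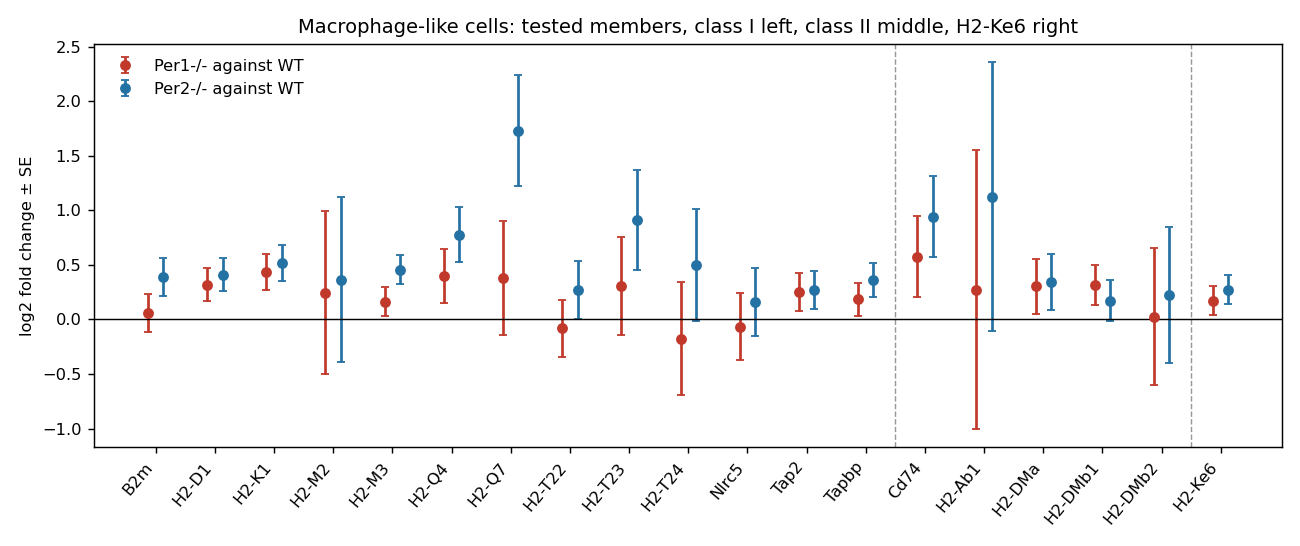
Fitted log2 fold change with its standard error for the 19 members tested in macrophage-like cells, Per1-/- against WT in red and Per2-/- against WT in blue. All 19 blue points lie above 0 with a median of 0.39, 16 of 19 red points do with a median of 0.25, and 0 of either were called.

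For Per1-/- against WT, 0 of 19 members were called in macrophage-like cells, against 0.0397% of all genes. DESeq2 called 0, against 1.03% of all genes. H2-K1 (log2 fold change 0.44, SE 0.16, adjusted p 0.386) was the only member at an unadjusted p under 0.05, and 4.31% of all genes were higher at that level. Of the 19, 16 were positive with a median of 0.25, against 50.7% of all genes. H2-K1 was higher in Per1-/- than in WT on 3 of 3 days (531 against 446 CPM, 683 against 467 CPM and 741 against 613 CPM), and so was H2-D1, while B2m was lower in Per1-/- on day 10 (2067 against 2507 CPM). For Per1-/- against Per2-/-, 0 were called against 0.0159% of all genes and 0 by DESeq2 against 2.0%. H2-M3 (-0.29) and H2-Q7 (-1.35) were lower at an unadjusted p under 0.05, against 8.51% of all genes, and 1 of 19 was positive. On day 4 B2m was higher in Per1-/- (1830 CPM) than in Per2-/- (1554 CPM), the reverse of days 7 and 10. Without the Per2-/- day 4 library, 6 members were called lower in Per1-/- than in Per2-/- (B2m, H2-Aa, H2-Q7, H2-T22, H2-T23 and H2-T24), against 3.62% of all genes called lower. Without the 8 cells as well, 5 of the 6 were called lower, against 3.58% of all genes, and H2-Aa was too low to be tested. The comparisons with WT share the WT libraries, and those with Per2-/- the Per2-/- libraries, so they are not independent of each other.

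Between days, macrophage-like cells had 0 of 19 members called for day 7 against day 4, against 0.906% of all genes. Here 5 members were higher at an unadjusted p under 0.05, against 11.0% of all genes, and DESeq2 called Cd74, against 4.16% of all genes. Cd74 had the largest fitted difference of the 5 (log2 fold change 1.54, SE 0.40, adjusted p 0.094), and it was higher on day 7 in 3 of 3 genotypes. H2-K1 (0.53, adjusted p 0.137), H2-M3, H2-Q4 and Tapbp were the others. The clusters of the class shifted in share between days, and the part of that shift in these differences was not tested. For day 10 against day 7, 0 of 19 were called against 1.03% of all genes, 0 were at an unadjusted p under 0.05, and DESeq2 called 0, against 1.47% of all genes. The day 10 matrices were made with another Cell Ranger version and feature table than those of days 4 and 7, so day 10 and that change cannot be told apart here or below.

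**Figure D5:**
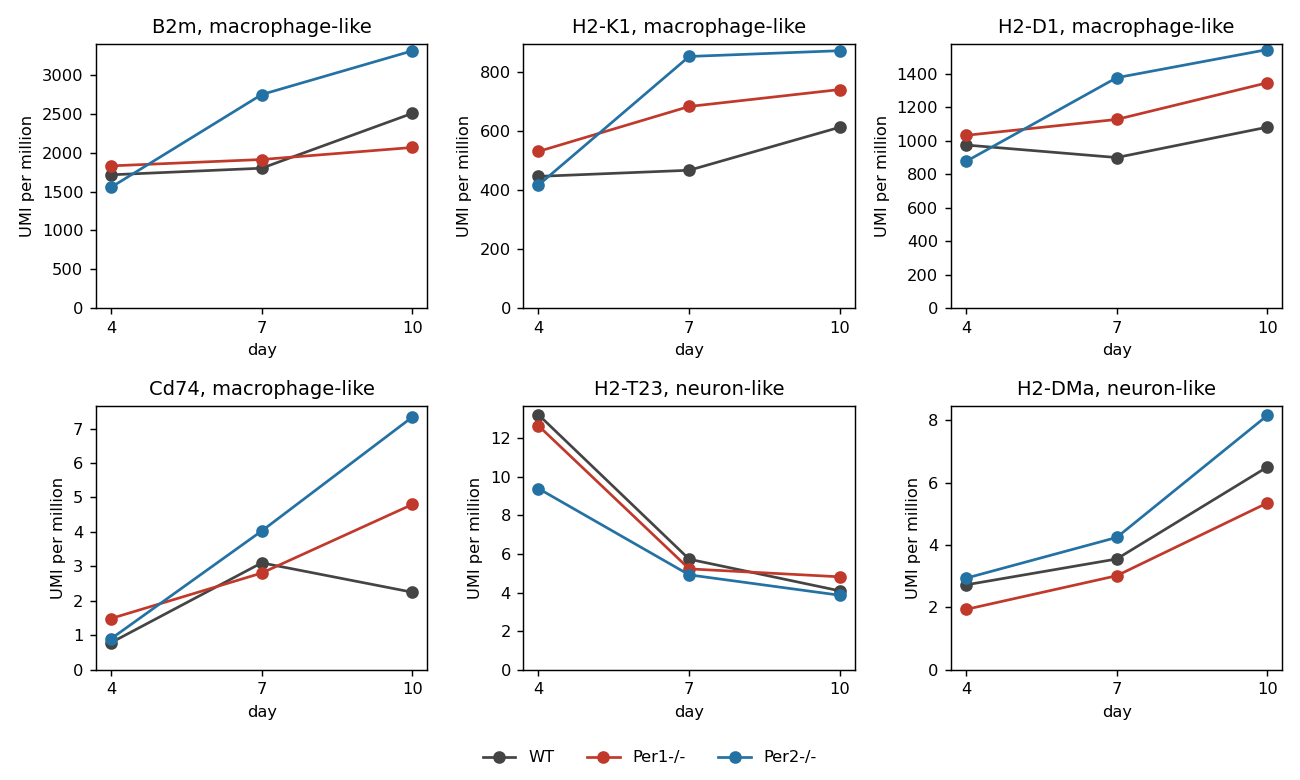
Level in CPM by day (4, 7 and 10) of B2m, H2-K1, H2-D1 and Cd74 in macrophage-like cells and of H2-T23 and H2-DMa in neuron-like cells, with a line joining the 3 libraries of each genotype. Per2-/- is the lowest genotype on day 4 and the highest on day 10 for the 3 class I genes in macrophages, H2-T23 lies lower on days 7 and 10 than on day 4 in neurons, and H2-DMa lies highest on day 10.

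In fibroblast-like cells 20 members were tested among 16864 genes, and 0 were called in any of the 5 comparisons. For Per1-/- against WT the share of all genes called was 0.0%, and 4 members were higher at an unadjusted p under 0.05, H2-K1 (log2 fold change 0.58, SE 0.16, adjusted p 0.474), H2-D1 (0.38), H2-Q4 (0.51) and H2-Q7 (1.08), against 4.55% of all genes, with 0 called by DESeq2 against 1.41% of all genes. H2-K1 in fibroblast-like cells was 36.1, 39.7 and 42.1 CPM in WT, 39.5, 69.3 and 66.0 CPM in Per1-/- and 26.5, 43.4 and 49.2 CPM in Per2-/- on days 4, 7 and 10, so that Per1-/- was the highest genotype on each day. H2-D1 had 60.9, 65.6 and 63.7 CPM in WT, 64.0, 83.8 and 93.3 CPM in Per1-/- and 42.4, 72.1 and 68.6 CPM in Per2-/-, again with Per1-/- on top each day. The Per1-/- fibroblast-like sums also had the highest Y-linked levels on days 7 and 10, 206 and 212 CPM, and the part of the embryos' sex in the H2-K1 difference was not tested. With that level as a covariate the log2 fold change of H2-K1 was 0.40 (SE 0.33) and that of H2-D1 0.53 (SE 0.30). For Per1-/- against Per2-/-, with 0.0% of all genes called, 4 members were higher at an unadjusted p under 0.05 (H2-K1, H2-D1, H2-M3 and Tap2), against 7.86% of all genes, and H2-Ke6 was lower, against 6.02%. Tap2 was 11.5, 19.5 and 26.2 CPM in Per1-/- fibroblasts and 7.55, 13.8 and 13.8 CPM in Per2-/- (log2 fold change 0.68, SE 0.19, adjusted p 0.273), and DESeq2 called it, against 3.25% of all genes, as did edgeR without the Per1-/- day 4 library (0.83, adjusted p 0.0402), against 6.5% of all genes. For Per2-/- against WT, 0.0% of all genes and 0 members were called, 2 members (H2-Q4 and H2-Ke6) were higher at an unadjusted p under 0.05, against 3.82% of all genes, and DESeq2 called 0, against 0.969%.

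In fibroblasts 11 of the 13 class I genes tested had a positive difference for day 7 against day 4, and 0 passed the test. For this comparison 2.29% of all genes and 0 of 20 members were called by edgeR, while DESeq2 called H2-K1 and Tapbp, 2 of 20 members, against 9.69% of all genes. At an unadjusted p under 0.05 there were 7 members, all higher on day 7 (B2m, H2-K1, H2-D1, Tap2, Tapbp, H2-DMb1 and H2-Ke6), against 10.2% of all genes, and 18 of 20 were positive with a median log2 fold change of 0.26, against 50.7% of all genes positive. B2m in fibroblasts was 402, 428 and 359 CPM in WT, Per1-/- and Per2-/- on day 4, 484, 482 and 506 CPM on day 7 and 572, 538 and 571 CPM on day 10, with no overlap between the days. By edgeR its log2 fold change was 0.28 (adjusted p 0.172) for day 7 against day 4 and 0.17 (adjusted p 0.614) for day 10 against day 7. Macrophage genes (C1qa, C1qb, C1qc, Tyrobp, Fcer1g and Lyz2) in the fibroblast-like sums went from 18.4, 32.2 and 13.6 CPM on day 4 to 25.0, 73.4 and 74.6 CPM on day 7. Their part in the differences was not tested. Tapbp had 61.4, 60.3 and 63.0 CPM in WT, Per1-/- and Per2-/- fibroblasts on day 4 and 88.1, 76.2 and 77.7 CPM on day 7, so the days do not overlap (log2 fold change 0.36, SE 0.08, adjusted p 0.0589), and edgeR called it without the Per2-/- day 10 library (adjusted p 0.0493), against 3.12% of all genes. Without the WT day 4 library H2-K1 (0.76, adjusted p 0.0412) and Tap2 (0.82, adjusted p 0.0418) were called instead, against 1.17% of all genes. For day 10 against day 7, 1.19% of all genes and 0 members were called by edgeR, H2-DMa and H2-Ke6 were higher at an unadjusted p under 0.05, against 5.63% of all genes, and DESeq2 called H2-DMa, against 2.48%. H2-DMa was 4.28, 4.90 and 4.65 CPM in fibroblasts of WT, Per1-/- and Per2-/- on day 7 and 6.68, 6.79 and 7.42 CPM on day 10 (log2 fold change 0.58, SE 0.13, adjusted p 0.141).

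Neuron-like cells held the only 2 calls among the members, both between days. Of 14 members tested among 14315 genes, H2-T23 fell from day 4 to day 7, and 17.6% of all genes were called in that comparison. H2-T23 was 13.2, 12.6 and 9.39 CPM in WT, Per1-/- and Per2-/- on day 4, 5.73, 5.23 and 4.92 CPM on day 7 and 4.09, 4.82 and 3.86 CPM on day 10. The day 4 values do not overlap those of either later day, and edgeR gave a log2 fold change of -1.14 (SE 0.16, adjusted p 0.000629) for day 7 against day 4. H2-DMa rose from day 7 to day 10, when 7.87% of all genes were called, from 3.55, 3.02 and 4.24 CPM to 6.50, 5.35 and 8.16 CPM (edgeR log2 fold change 0.98, SE 0.21, adjusted p 0.017). That call was lost when any 1 of Per1-/- day 7, Per1-/- day 10, Per2-/- day 7, Per2-/- day 10 or WT day 7 was left out, with an adjusted p of 0.05 to 0.12, while the log2 fold change stayed at 0.90 to 1.05 whichever library was left out, and all of its day 10 values come from the other feature table. DESeq2 called the same 2 genes in these comparisons, against 14.5% and 7.27% of all genes. The neuron-like sums of H2-Aa, H2-Ab1 and H2-Eb1 were 0.580 to 1.25 CPM in all libraries, and 0.695 to 2.89 CPM with neurons named from the clusters at resolution 0.5.

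Between genotypes 0 of the 14 members were called in neuron-like cells. Per1-/- against WT had 0.021% of all genes called, 0 members at an unadjusted p under 0.05 and 0 called by DESeq2 against 0.174%. Per2-/- against WT had 0.014% of all genes called, with H2-Ob (log2 fold change 1.67, SE 0.54, adjusted p 0.565) and H2-Ke6 higher at an unadjusted p under 0.05, against 3.32% of all genes, and 0 called by DESeq2 against 0.201%. Per1-/- against Per2-/- had 0.0% of all genes called, with H2-DMa and H2-Ke6 lower in Per1-/- at an unadjusted p under 0.05, against 4.09% of all genes, and 0 called by DESeq2 against 0.584%. For the macrophage-like fit of Per1-/- against WT, in simulated counts, 96.9% of the genes changed 4-fold and 44% of those changed 2-fold were called, with 10 calls among unchanged genes. The simulated counts had the same added spread for every gene and no change between days. These shares can therefore differ from the power of the real comparison. Power was not simulated for the other classes.

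Other genes of the same pathways were read from 5 lists. The genes that supply and load peptides for class I (14 genes: proteasome subunits, Tap1, Tapbpl, Erap1 and chaperones) were nearly as abundant in fibroblasts (summed 1980 to 2273 CPM) as in macrophages (2355 to 2926 CPM), with neurons at 1483 to 1853 CPM. Of the immunoproteasome subunits, Psmb8 and Psmb9 followed the heavy chains instead, while Psmb10 differed less between classes. Psmb9 held 27.6 to 92.3 CPM in macrophages, 2.30 to 11.3 CPM in fibroblasts and 0.128 to 1.61 CPM in neurons. Psmb8 held 128 to 235 CPM in macrophages, 8.06 to 33.4 CPM in fibroblasts and 0.841 to 3.71 CPM in neurons. Psmb10 held 68.3 to 104.7 CPM in macrophages, 20.9 to 33.3 CPM in fibroblasts and 13.3 to 33.2 CPM in neurons. The proteases and ligases that process class II (8 measured genes) reached 10370 to 13310 CPM in macrophages against 1072 to 1287 CPM in fibroblasts, although the summed class II chains did not exceed 4.53 CPM in either. The 6 genes of the co-stimulation list, which also holds the inhibitory ligands Cd274 and Pdcd1lg2, held 37.7 to 111 CPM in macrophages and 2.19 to 4.97 CPM in fibroblasts.

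In the macrophage-like fit of Per2-/- against WT, 0 genes of the 5 lists were called. All 18 interferon response genes were positive there with a median log2 fold change of 0.88, against 49.5% of all genes. By day, Per2-/- lay under WT for 16 of the 18 on day 4 and above WT for 18 of 18 on days 7 and 10. At an unadjusted p under 0.05, where 7.17% of all genes were higher, stood Gbp3 and Gbp7 of these 18 and Psmb10 and Psme1 of the 14 peptide supply genes. Ctsl and March1 of the 8 class II processing genes stood there too, as did Irf1, Irf2, Irf8, Ifngr1 and Rfxank of the 13 regulators. Of the 5 genes tested from the co-stimulation list, Cd40, Cd80, Cd86 and the inhibitory ligand Cd274 did. For day 7 against day 4 in macrophages, where 0.906% of all genes were called, the interferon-induced GTPase Gbp7 rose (edgeR log2 fold change 1.90, SE 0.24, adjusted p 0.0305). It was the only gene of the 5 lists to be called in that class. In fibroblasts the asparaginyl endopeptidase Lgmn fell from day 4 to day 7 (log2 fold change -0.70, SE 0.10, adjusted p 0.026), where 2.29% of all genes were called, and it was the only gene of the 5 lists called in that comparison. In neuron-like cells the chaperones Calr (0.63) and Canx (0.41), Psmb8 (1.0), Tapbpl (0.77), Ctss (1.44), March1 (1.0) and Gbp7 (1.24) rose and Nfya (-0.40) and Ifngr1 (-0.33) fell on the log2 scale from day 4 to day 7, where 17.6% of all genes were called. By list, the calls were 4 of 14 peptide supply genes, 2 of 8 class II processing genes and 2 of 13 regulators. The interferon response list had 1 of 15 and the co-stimulation list 0 of 1. Ctss is abundant in macrophages (948 to 1162 CPM), and 6 macrophage genes (C1qa, C1qb, C1qc, Tyrobp, Fcer1g and Lyz2) moved the same way in the neuron-like sums, from 19.6, 47.0 and 16.5 CPM in WT, Per1-/- and Per2-/- on day 4 to 26.2, 130 and 89.9 CPM on day 7. Their part in these changes was not tested. From day 7 to day 10 Ctsl (0.61) rose and Nfya (-0.59) and Rsad2 (-0.77) fell in neuron-like cells, where 7.87% of all genes were called. These were 1 of 8 class II processing genes, 1 of 13 regulators and 1 of 15 interferon response genes, with 0 of 14 peptide supply genes called.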

How the data were processed

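Messenger RNA was measured in single cells of 9 MEF cultures with 10x Genomics 3′ libraries, 1 per genotype and day. Each deposited value is a raw count, the number of UMI of 1 gene in 1 barcode, and the authors made these counts with Cell Ranger. The study's methods and the submitters' processing notes name version 7.1 and build mm10, while the file headers give 4.0.0 for days 4 and 7 and 6.0.0 for day 10, with 31053 and 32285 genes. Reads that map to several genes are not counted by that tool. The 30406 gene IDs in both tables were used, 40 members among them. No column of another series was in the tables (0 columns).

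Kept barcodes had 3000 UMI or more, of which mitochondrial genes made up to 20%, and 8442 likely doublets by Scrublet score (scanpy 1.11.5), taken from the top until the rate was 0.8% per 1000 barcodes, were left out. Total UMI per library ran from 126625215 to 353198559, and intervals cover counting error only. Cells were clustered (leidenalg 0.10.2, 2000 variable genes without MHC, Y-linked or mitochondrial genes or the pathway genes that are no cell type marker, 30 components, resolution 1) into 32 clusters, named by marker lists. Clusters that met no rule stayed unnamed, among them 1 of 1698 cells with macrophage markers and low UMI. Shares of cells with a UMI were taken at 3000 UMI per cell, which left out 39 cells, with exact Clopper-Pearson intervals.

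Counts were summed per library and class and tested with edgeR 4.0.16 (R 4.3.3; TMM, filterByExpr, glmQLFit and glmQLFTest, two-sided), with day and genotype as factors and Benjamini-Hochberg adjustment over all genes tested, threshold 0.05. The fit was tested on simulated counts. Alternatives were RLE factors, DESeq2 1.42.0, no filter on low counts, each library left out, no day 10, doublets kept, resolution 0.5, Y-linked level as a covariate and, added after the data were seen, leaving out 8 macrophage-like cells with 10 or more UMI of Cd74 and the class II chains. The groups came from the sample labels. Named were the light chain, the classical chains, the leading non-classical chains, the loading, editing and switch genes, any member called, and the 5 members highest in a class. Genes outside the 40 were named from pathway lists when called or when high in their list, and others were named after their values were seen. The members and lists were chosen with earlier results of these data known. Promoters came from RefSeq (GRCm38.p6).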

Additional observations from a re-analysis of the deposited data

Results flagged for a closer look

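Members were compared between cell classes under the same contrast, 210 pairs in all, and 7 pairs stood out because every pair of libraries moved one way in one class and the opposite way in the other. The difference itself was not tested in any of them, no member was called in either class of a pair, and signs that differ this way come up by chance among so many pairs.

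H2-M3, which presents N-formylated peptides, made 3 of the 7. For Per2-/- against WT its log2 fold change was 0.46 for macrophages, -0.24 for fibroblasts and -0.56 for neurons, by class name, with Per2-/- higher on all 3 days in macrophages and lower on all 3 days in the other classes. For Per1-/- against Per2-/- it was -0.29 in macrophage-like and 0.47 in fibroblast-like cells.

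H2-DMb1, a chain of the class II editor, had a log2 fold change of -0.23 for day 7 against day 4 for macrophage-like and 0.57 for fibroblast-like cells. Tap2, the transporter subunit, had 0.54 in fibroblast-like cells and -0.27 in neuron-like cells for the same days. H2-T23 had 0.41 in macrophage-like and -0.24 in neuron-like cells for day 10 against day 7. H2-T22 had 0.10 in fibroblast-like and 0.01 in neuron-like cells for day 10 against day 7. Its CPM was lower on day 10 in neuron-like cells of all 3 genotypes, and the fitted value was on the other side of 0 after TMM scaling.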

How the results depend on the processing

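The labels give no replicate numbers. The fits took day as a factor, so that genotypes were compared within days, and no other pairing of the libraries was given. The number of member calls over the 5 comparisons was 0 in macrophage-like, 0 in fibroblast-like and 2 in neuron-like cells. In macrophage-like cells it was 1 (Cd74, day 7 against day 4) with DESeq2, with doublets kept and with no filter on low counts, and it ran from 0 to 17 when single libraries were left out, the 17 without Per2-/- day 4 (11 in the comparison of Per2-/- with WT and 6 in that of the mutants). Without the 8 cells of high class II UMI it was 0, and 15 when Per2-/- day 4 was left out too. In fibroblast-like cells it was 4 with DESeq2 (Tap2, H2-DMa, H2-K1 and Tapbp) and 1 with doublets kept (Tapbp), and from 0 to 2 with single libraries left out, 2 without WT day 4 and 1 without Per1-/- day 4 or Per2-/- day 10. In neuron-like cells it ran from 1 to 3 with single libraries left out. It was 1 without Per1-/- day 7, Per1-/- day 10, Per2-/- day 7 or Per2-/- day 10, and 3 without WT day 4, where H2-D1 was added. Without WT day 7 it was 2, with H2-K1 called and H2-DMa not. At resolution 0.5 it was 3, with H2-Ab1 added. H2-T23 stayed called in each of these neuron-like fits. The causes were not tested.

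The median class I sum of neuron-like cells was 205 CPM, and 339 CPM with doublets kept. The share of cells with a class II chain moved with depth and with the count asked for: in macrophage-like cells 1.02% without thinning and 0.0612% at 3 or more UMI, in fibroblast-like cells 2.04% and 0.00679%, and in neuron-like cells 1.03% and 0%. For any class II member the shares were 31.7% and 0.107% in macrophages, 17.6% and 0.0136% in fibroblasts, and 7.32% and 0% in neurons. For class I heavy chains the shares were 100% and 88% in macrophage-like cells (96.6% with doublets kept), 88.4% and 2.49% in fibroblast-like cells (34.8%), and 61.1% and 0.814% in neuron-like cells (24.9%). Among the values for single members under the alternatives, 298 kept their side of the threshold and their direction, 24 crossed to a call and 5 lost one. Depth limits the low genes, since a macrophage-like sum of 3815811 UMI holds 3 UMI at 0.786 CPM.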
